A study of Mus musculus with 2 samples.

Results

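This report describes 9 genes of the glia of the optic nerve and retinal surface, Cnp, Pdgfra, Mbp, Gfap, Pax2, Aldh1l1, S100b, Olig1 and Aqp4, in the embryonic mouse retina. The genes were selected on the intensities and ratios of these same arrays, so their values are given as a description. Every probe set annotated with exactly 1 of these symbols was then taken, which gave 25 probe sets of 8 genes, out of 45037 probe sets and 18193 named genes on the array. Pax2 had no probe set with that single symbol and was not analysed here. The arrays compared a wild-type retina with a Sox11-/- retina, both C57BL/6 at E18, from littermate embryos. Each genotype was 1 retina on 1 Affymetrix array, and the question was which transcripts differ when the transcription factor Sox11 is missing. Since no genotype was replicated, no error between animals and no test can be given. Each value below describes these 2 retinas, and the low number of arrays limits the precision.

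Astrocytes of the retina are not born there: their precursors enter from the optic nerve along the surface, following ganglion cell axons, shortly before birth. They carry the receptor Pdgfra and respond to the ligand Pdgfa, which ganglion cells make, and they gain Gfap as they mature. Oligodendrocytes, which make myelin in the optic nerve, normally do not enter the mouse retina, and Cnp and Mbp are best known as their myelin genes. Several of these genes are not confined to such glia: Pdgfra is also carried by connective tissue cells, and Aqp4 and S100b are found in Müller glia, the resident glia of the retina, as they mature.

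Of the 8 genes, Cnp and Pdgfra were lower on the knockout array in all of their 3 probe sets each, by up to 1.88-fold for Cnp and 2.09-fold for Pdgfra. The brightest probe set of Mbp was slightly higher, and the other 3 Mbp probe sets past the filter were close to level. The remaining genes were dim: Gfap and Aldh1l1 each passed the low-value filter with 1 probe set on 1 array, and S100b, Olig1 and Aqp4 passed it with none. Because each array holds the RNA of a whole retina, fewer cells of a type and less RNA per cell cannot be told apart. Each ratio is the knockout value less the wild-type value of log2(intensity + 5), a scale that shrinks differences between dim values. A probe set passed the filter where at least 1 of its intensities reached 18.6, the median of all values.

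**Figure D1:**
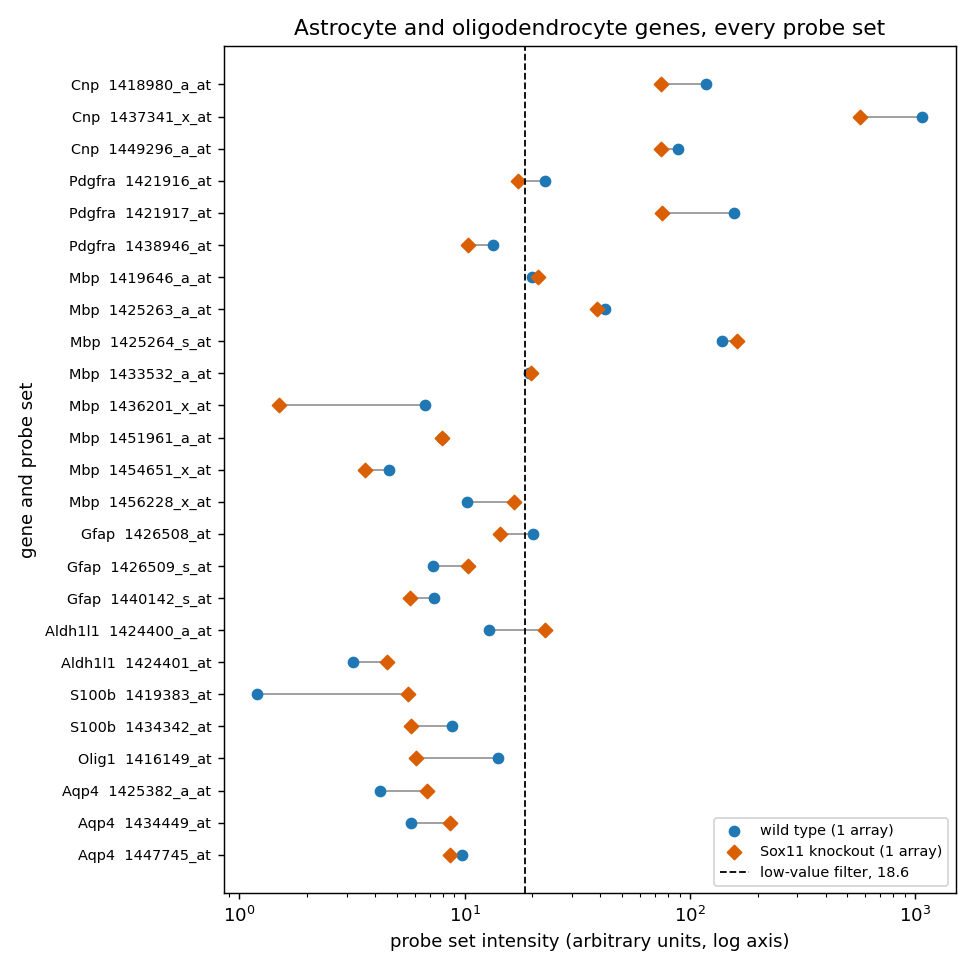
Intensity (log axis, arbitrary units) of each of the 25 probe sets on the wild-type array (circles) and the Sox11 knockout array (diamonds), joined by a line, with the low-value filter of 18.6 dashed. The Cnp and Pdgfra diamonds lie left of their circles in all 6 probe sets, and 14 probe sets lie wholly below the filter.

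Cnp encodes a membrane-bound phosphodiesterase of cyclic nucleotides that is abundant in the non-compact myelin of oligodendrocytes. Its probe set 1437341_x_at gave 1075.1 on the wild-type array and 571.6 on the knockout array, and its log2 ratio was -0.91. A dimmer probe set, 1418980_a_at, gave 118.1 and 74.8, with a ratio of -0.63. The third, 1449296_a_at, gave 88.8 and 74.3, with a ratio of -0.24. The wild-type array was thus the brighter in all 3, by 1.88-fold, 1.58-fold and 1.20-fold. All 6 intensities were above the filter, which is the median of all values and not a detection call. The suffix x marks probe sets with probes that can also match other transcripts, and the suffix a marks those that match several transcripts of a gene. No Cnp probe set was free of such a suffix. To set these ratios beside other probe sets of like brightness, the 23581 probe sets past the filter were divided by level into 4 bands of equal size. In the brightest band, 6 of 5895 probe sets, the first Cnp probe set included, had a ratio of -0.91 or lower. In the band of the other Cnp probe sets, 89 of 5895 were as low as 1418980_a_at and 769 as low as 1449296_a_at. The first Cnp ratio lay at the edge of its band, while the last was well inside. Cnp was chosen on these same arrays, so these places are only a description.

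The sequence before the Cnp gene is shown because, among the windows searched, only this one held a searched word. The direction of the probe sets played no part in that choice. Sox11 binds DNA through a known family of short words. AACAAAG and AACAAT are words of that family, and both were searched on both strands in the 250 bases before each transcript start in a table from RefSeq, build GRCm38.p6. The words share their first letters and end differently, so no stretch of 1 strand can match both at the same first base. Windows were found for 6 of the 9 genes: Cnp, Pdgfra, Aldh1l1, S100b, Gfap and Pax2, the last with several starts, giving 8 windows. The Pdgfra window and 2 of the Pax2 windows lie wholly inside the annotated gene, 25 bases of the Aldh1l1 window do, so these stretches are not sequence before the gene. Cnp alone among these had a match, 1 copy of AACAAAG on the plus strand at chr11:100574771-100574777, beginning 168 bases before the transcript start and 138 bases before the first base of the annotated gene. Its window is printed 5′ to 3′ without the last 30 bases, which lie inside the annotated gene. It covers chr11:100574689-100574908 on the plus strand, with the matching word in capitals.
Cnp: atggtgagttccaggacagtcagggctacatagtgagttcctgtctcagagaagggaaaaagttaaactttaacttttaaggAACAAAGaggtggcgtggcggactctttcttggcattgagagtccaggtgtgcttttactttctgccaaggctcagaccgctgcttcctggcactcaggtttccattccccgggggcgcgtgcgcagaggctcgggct
Of all 32851 windows of this length, 5.03% held AACAAAG, 9.42% held AACAAT and 13.8% held either word. A match describes letters only and is no binding site, and the windows without a match show only that these letters were not in them.

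Pdgfra encodes the receptor alpha for platelet-derived growth factor, which marks oligodendrocyte precursors in the brain and immature astrocytes in the retina. Its brightest probe set, 1421917_at, gave 156.2 on the wild-type array and 74.9 on the knockout array, and its log2 ratio was -1.01. A dim probe set, 1421916_at, gave 22.7 and 17.3, with a ratio of -0.31. The third, 1438946_at, gave 13.3 and 10.4, with a ratio of -0.25 and both values below the filter. The wild-type array was brighter in all 3, and only the first was above the filter on both arrays. It was 2.09-fold lower in the knockout; against the filter value, 1421916_at was at least 1.22-fold lower. In its band of level, 8 of 5895 probe sets had a ratio as low as that of 1421917_at, while 826 of 5896 were as low as 1421916_at in the dimmest band. Pdgfra too was chosen on these arrays, so its places are only a description.

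The first Pdgfra probe set was the only one of the 11 member probe sets past the filter that was at least 2-fold lower, and none was at least 2-fold higher. Over all probe sets past the filter, 0.399% were 2-fold lower or more and 1.47% were 2-fold higher or more. With 18.6 added in place of 5 before the logarithm, the Pdgfra ratio was -0.90 and no member probe set reached 2-fold. Of the 11, 7 had a ratio below 0, beside 44.9% of all probe sets past the filter. These probe sets share genes, so they are not independent of each other.

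**Figure D2:**
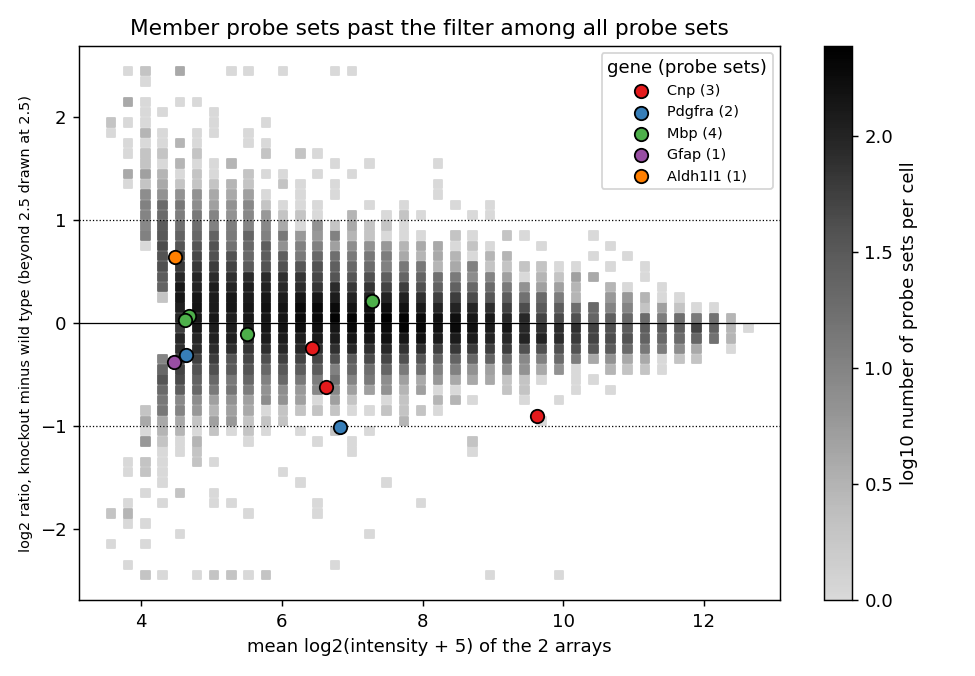
Log2 ratio (knockout minus wild type) against mean log2(intensity + 5) for all 23581 probe sets past the filter, as grey squares shaded by the number of probe sets, with the 11 member probe sets coloured by gene. Ratios beyond 2.5 are drawn at 2.5 and dotted lines mark 2-fold. A Cnp point lies at -0.91 and a Pdgfra point at -1.01, where 6 and 8 probe sets of their level bands, themselves included, are as low. Both genes were chosen on these same arrays, so those counts are only a description.

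Mbp encodes myelin basic protein, a main protein of compact myelin, and its locus also makes longer transcripts that neurons and immune cells carry. It had 8 probe sets, of which 4 passed the filter. The probe set 1425264_s_at gave 139.3 on the wild-type array and 162.0 on the knockout array, and its log2 ratio was 0.21. Next in brightness, 1425263_a_at gave 41.9 and 38.5, with a ratio of -0.11. The pair nearest the filter, 1419646_a_at and 1433532_a_at, read 19.9 and 21.1, and 19.3 and 19.8, with log2 ratios of 0.07 and 0.03. These 4 ratios lay on both sides of 0 and inside the central 95% of their bands, which ran from -0.44 to 0.57 for the brightest of them. Those of the dimmest pair turned negative, to -0.15 and -0.21, after loess scaling. The 4 Mbp probe sets below the filter read between 1.5 and 16.6, and 1451961_a_at read 7.9 on both arrays. Mbp thus did not share the lower values of Cnp, another myelin gene, in these probe sets. The difference between the genes was not tested.

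The astrocyte genes Gfap and Aldh1l1 lay at the filter. Gfap, the intermediate filament of mature and reactive astrocytes, read 20.2 and 14.4 in 1426508_at, a log2 ratio of -0.38 and at least 1.09-fold lower. Its other probe sets, 1426509_s_at and 1440142_s_at, read 7.2 and 10.3, and 7.3 and 5.7, with log2 ratios of 0.33 and -0.20. The 3 Gfap probe sets therefore went in different directions, all at levels where the central 95% of ratios ran from -0.76 to 1.18 or below the filter. Aldh1l1, a folate enzyme used as a marker of astrocytes, read 12.8 and 22.8 in 1424400_a_at, a log2 ratio of 0.64 and at least 1.23-fold higher. In 1424401_at it read 3.2 and 4.5. Both Aldh1l1 probe sets were higher in the knockout, but 13.8% of the probe sets in the dimmest band had a ratio as high as that of the first.

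S100b, Olig1 and Aqp4 were below the filter on both arrays, so no fold is given for them. S100b, a calcium-binding protein of mature astrocytes, read 1.2 and 5.6 in 1419383_at, and 8.8 and 5.8 in 1434342_at, with the arrays in opposite order. Olig1, a transcription factor of the oligodendrocyte lineage, had 1 probe set, 1416149_at, whose value was 14.1 on the wild-type and 6.1 on the knockout array. Aqp4, the water channel of astrocyte endfeet, read 4.2 and 6.8 in 1425382_a_at, 5.8 and 8.6 in 1434449_at, and 9.7 and 8.6 in 1447745_at. Over all 14 member probe sets that did not pass, the highest value was 16.6, and 6 were higher, 7 lower and 1 equal in the knockout. Their ratios had no common direction. A transcript near the lower end of the scale was not detectable by this measure, which is not evidence that it is absent.

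Taking 1 value per gene, from the brightest passing probe set, 5 member genes had a value. Cnp, Pdgfra and Gfap had a ratio below 0, and Mbp and Aldh1l1 a ratio above 0. Their median was -0.38, and -0.09 with values below the filter set to 18.6, beside -0.01 over all 11557 genes past the filter, of which 52.1% were below 0. Gfap passed only through its wild-type value and Aldh1l1 only through its knockout value, so these counts describe the probe sets that passed and support nothing further. The share of member genes past the filter, 62.5%, was near the 63.5% of all named genes.

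The other genes of these lineages were taken from lists of the astrocyte lineage, the oligodendrocyte lineage and the signals that act on them. Of 25 further astrocyte lineage genes, 20 passed the filter, with 12 lower, 8 higher and a median of -0.08. Only Cd44, a hyaluronan receptor also carried by macrophages and connective tissue, was at least 2-fold apart. It read 29.6 and 66.1, a log2 ratio of 1.04, and its 4 probe sets ranged from -0.30 to 1.46; after quantile or loess scaling it was under 2-fold. Over all genes past the filter, 0.943% were 2-fold higher or more and 0.407% were 2-fold lower or more. The next largest ratios were -0.81 for the transcription factor Nfix, with 5 probe sets between -0.81 and 0.13, 0.64 for the bicarbonate transporter Slc4a4 and -0.56 for Ndrg2. The 5 genes that did not pass, Gjb6, Agt, Acsbg1, Hepacam and Mlc1, are markers of mature astrocytes, and none read above 5.3 in its brightest probe set.

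Of 24 further oligodendrocyte lineage genes, 20 had a probe set and 8 passed the filter, with 5 lower, 3 higher and a median of -0.08. Bcan, which encodes the proteoglycan brevican of glial precursors, was the one gene at least 2-fold apart. In 1441899_x_at it gave 57.9 on the wild-type and 13.9 on the knockout array, a log2 ratio of -1.73 and at least 3.11-fold lower. Its other probe set, below the filter, gave -0.92, so no Bcan value is left when probe sets of suffix x are set aside. Olig2, a transcription factor of the oligodendrocyte lineage that retinal progenitors also express, read 209.9 and 170.6, a log2 ratio of -0.29. Ugt8a, an enzyme of myelin lipid synthesis, had -0.49 in its brighter probe set and 0.50 in the other. The proteoglycan Vcan had 0.53, with all 8 probe sets higher, of which only 3 passed the filter. The lineage and myelin genes Sox10, Nkx2-2, Cspg4, Mog, Mag, Mobp, Cldn11, Gpr17, Myrf, Opalin, Bcas1 and Mal were below the filter, Sox10 closest to it at 17.6 and 18.5. Mog, a protein of mature myelin, read 2.8 and 3.9, and Mag, an adhesion molecule of myelin, 7.4 and 1.5. These lineage and myelin genes were thus at low values on both arrays. Cnp read 1075.1 and 571.6 in its first probe set, which has suffix x and can match other transcripts. Its other probe sets read 118.1 and 74.8, and 88.8 and 74.3. Mbp read 139.3 and 162 in its brightest probe set.

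Among 19 genes of PDGF signalling and other glial cues, 13 passed the filter, with 8 lower, 5 higher, none at least 2-fold apart and a median of -0.09. Pdgfa, a ligand of Pdgfra, gave 25.7 on the wild-type and 32.3 on the knockout array. Its log2 ratio was 0.28, and both of its probe sets were higher. Pdgfc, another PDGF gene of this list, was brighter, at 165.3 and 150.7, with a log2 ratio of -0.13. Both Pdgfc probe sets were lower. A link between these values and Pdgfra was not tested. Pdgfrb, the receptor of pericytes, had a log2 ratio of 0.58 in its brighter probe set and -0.01 in the other. Stat3, which carries the signal of Lif and Cntf that promotes astrocyte differentiation, had 0.38. All 4 Stat3 probe sets were higher, of which only 2 passed the filter. The growth factor Vegfa had -0.36. Erbb3, a neuregulin receptor, read 10.1 and 20.8, a log2 ratio of 0.77, with a bound of 1.12-fold; its other probe set gave -0.28. Of 8 optic stalk genes, the tissue from which optic nerve glia derive, 5 passed, all lower, with a median of -0.15. Their ratios were small, from -0.22 for Etv5 to -0.05 for Vax1. Over all genes past the filter, 52.1% were below 0 and the median was -0.01.

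**Figure D3:**
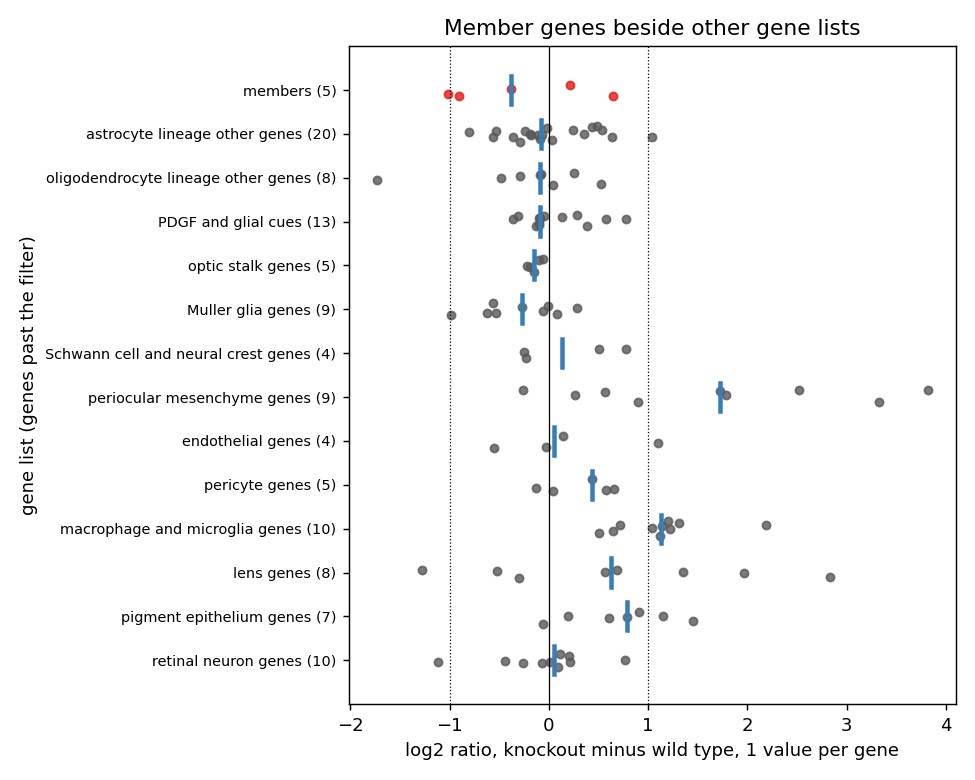
Log2 ratio (knockout minus wild type) of each gene past the filter, 1 point per gene, for the members (red) and 13 other gene lists (grey), with the median of each as a blue bar; dotted lines mark 2-fold. The member points range from -1.01 to 0.64, and the lists of periocular mesenchyme and of macrophages and microglia have medians of 1.72 and 1.13.

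The arrays also differed in genes listed for other cells, as values beside the Cnp and Pdgfra results. Which cells of these retinas carried the listed genes, those of Müller glia included, was not tested. Periocular mesenchyme genes, from connective tissue that also carries Pdgfra, had 8 of 9 passing genes higher and a median of 1.72 (0.89 with low values at the filter). Over all genes past the filter, 52.1% were lower. Several of the higher genes, Col3a1, Dcn, Lum and Postn among them, passed the filter only through their knockout values. Such a gene can only count as higher, here and in the lists below. The summed intensities, over passing and other genes alike, were 303.4 on the wild-type and 794.2 on the knockout array. In its brightest probe set, Col3a1 was at least 13.6-fold higher, and Dcn in its own at least 7.17-fold. The 2 Col3a1 probe sets gave log2 ratios of 1.86 and 3.82, and the other Dcn probe set, below the filter, gave -0.31. All 10 passing macrophage and microglia genes were higher, with a median of 1.13 (1.09 with low values at the filter) and summed intensities of 362.4 and 789.7. Some of them, Mpeg1 included, passed only through their knockout values. Lens genes had a median of 0.63 with 5 of 8 higher, which was 0.03 with the filter at 109.4. The median of pigment epithelium genes was 0.79, with 6 of 7 higher (0.19 with low values at the filter). Pericyte genes had 0.43, with 4 of 5 higher, but -0.03 with no filter. Endothelial genes had 0.05, with 2 of 4 higher, and turned to -0.03 after quantile or loess scaling and -0.21 with the filter at 109.4. Schwann cell and neural crest genes had a median of 0.13 (-0.05 with low values at the filter, -0.23 with no filter or the filter at 109.4), with 2 of 4 higher and summed intensities of 625.7 and 549.6. Müller glia genes had 7 of 9 lower, a median of -0.27 and summed intensities of 10163.7 and 9559.7, with Rlbp1 at -0.99 and Car14 at -0.62. That median was -0.14 with the median over probe sets and -0.015 without probe sets of suffix s, x or a, where Cp went from -0.53 to 0.03. No gene of these lists was at 0 on either array in its brightest probe set. The part of these cells in the Cnp and Pdgfra values was not tested.

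The tissue label was checked with 11 retinal neuron genes, of which 10 had a probe set and all 10 passed; their median was 0.05, with 6 higher. One of them was at least 2-fold lower: Nrl, the transcription factor of rod fate, gave 632.8 and 289.0, a log2 ratio of -1.12. Of 6 Sox11 probe sets, 5 were lower in the knockout, and their ratios ran from -3.64 to 1.08; no label gives the deleted stretch of the gene. Xist read 12.3 and 922.7, and the Y-linked Eif2s3y and Kdm5d 214.0 and 4.7, and 130.4 and 3.5. These transcripts thus read as male on the wild-type array and as female on the knockout array. Genotype, animal, sex and tissue make-up cannot be told apart with 1 retina each.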

How the data were processed

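Per the labels' protocols, cRNA amplified from the total RNA of a single retina was labelled with biotin and hybridised to an Affymetrix array. The authors deposited linear intensities, 1 per probe set and array; for the software behind them the sources used here name none. Their mean, trimmed of 2% at both ends, was 100 on each array. The 64 control probe sets were left out. Ratios are differences of log2(intensity + 5), where 5 is the pooled 25th percentile, with no further scaling. The filter of 18.6 is the pooled median, and it stands in for a background since detection calls were not used. The wild-type array had a median intensity of 17.6 and the knockout array one of 19.7.

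Symbols came from GEO's platform annotation, which named 34945 probe sets with a single symbol, while 932 had several symbols and 9160 had none. A gene took its brightest passing probe set. Genes outside the 9 were named by rule: up to 4 per list with the largest ratios, and every glial or PDGF gene at least 2-fold apart. Pdgfa, Pdgfc, the genes below the filter and the sex-linked genes were named outside this rule, after their values were seen. The members and the 13 lists were chosen with earlier results of these data known. Python 3.11.15 with pandas 2.3.3, numpy 2.4.6 and statsmodels 0.14.6 was used. The procedure was tested on simulated data, with shifts planted only in bright probe sets and larger than any member ratio. That test does not cover dim probe sets or smaller shifts. Alternatives changed the scaling, pseudocount, filter, probe sets and rule per gene.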

Additional observations from a re-analysis of the deposited data

How the results depend on the processing

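No paired analysis was possible because each genotype had 1 array. With no replicates, a value was taken to have moved if it shifted by at least 0.26, the pooled SD of the ratios of a gene's different probe sets. Of 798 values under 9 alternatives, 711 stayed within this or, for counts, within 1.5 times, 87 moved, and no value at least 2-fold apart changed sign. Cnp ranged from -0.94 to -0.63 and Pdgfra from -1.06 to -0.66 where they could be computed; the values nearest 0 came from taking a gene's median probe set value. Cnp has no value without probe sets of suffix s, x or a. The member median was -0.66 after loess, -0.91 with the filter at 109.4 and -0.69 without suffixes s, x or a, where fewer genes were left in the last 2 cases; the cause of the loess shift was not tested. The count of member probe sets 2-fold lower was 0 with the pseudocount at the pooled median. The astrocyte lineage count was 0 after quantile normalization and loess, with that pseudocount and with the higher filter. The oligodendrocyte lineage count was 3 with no filter, and 0 with the higher filter and without the suffixes; the PDGF count was 1 with no pseudocount and with no filter. The medians of these 3 lists turned positive, to 0.03, 0.04 and 0.06, with the median over probe sets. Detection calls were not used, so the filter sets which dim genes count.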
